A study of Mus musculus with 2 samples.

Results

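The 10 genes described here encode neuronal RNA-binding proteins and regulators of splicing, and their levels were followed through the cell classes of the embryonic mouse cortex. They are Ptbp1, Ptbp2, Rbfox1, Rbfox2, Rbfox3, Nova1, Nova2, Elavl2, Elavl3 and Elavl4, found by their symbols as 10 of the 32285 genes listed. Single-cell RNA sequencing had been carried out on dissociated cerebral cortex of E16.5 embryos, in 2 libraries that are both WT control animals of the EomesDot (Eomes-Cre) line. No other genotype, treatment or age entered, so every comparison runs between cell classes within these libraries. The study describes its cells of this age as from C57BL/6J embryos and counts the embryos in all, whereas the labels name the EomesDot line, and this difference could not be settled. The number of embryos per library, and whether the animals carry the Cre allele, is not given in the sources used here.

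Neurons use a repertoire of splicing regulators that differs from that of their progenitors. PTBP1 (polypyrimidine tract-binding protein) represses neuronal exons in progenitors and other cells, and its loss, to which the microRNA miR-124 contributes, permits the expression of its neuronal paralogue PTBP2, whose own decline later allows the adult splicing pattern. RBFOX proteins bind GCAUG and NOVA proteins YCAY motifs around alternative exons, whereas ELAVL2, ELAVL3 and ELAVL4 (the neuronal Hu proteins) bind AU-rich RNA and regulate its stability, translation and splicing. The counts are of molecules captured at the 3′ end, so they give the amount of a gene's RNA and say nothing of its isoforms, of its splicing or of its protein.

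Library 1 held 9049 barcodes and 46398156 UMIs (unique molecular identifiers, each standing for 1 captured molecule), library 2 held 13556 barcodes and 64324236 UMIs. The filter on 1500 to 60000 UMIs and under 10% mitochondrial UMIs was passed by 5966 and 10247 cells, and 5534 and 9136 cells were left after the removal of likely doublets. The libraries shared 21 barcodes. Clustering without the 10 regulators gave 26 clusters, of which 20 were named from marker genes as 16 classes, each to be read as "X-like". The 6 unnamed clusters held 1262 and 2331 cells (22.8% and 25.5%) and were in none of the main comparisons. The largest, with 1111 cells, came nearest to newborn excitatory neuron markers. Others of 853 and 562 cells came nearest to CGE interneuron and striatal projection neuron markers. Values for classes of neurons are thus of the named clusters only. Of the markers of a class, 10 of 12 were highest in RGC-like, 8 of 10 in IPC-like and 7 of 11 in upper-layer cells. The count was 9 of 11 in deep-layer, 8 of 13 in MGE interneuron-like and 7 of 10 in GABAergic progenitor-like cells. These counts are among the 15 classes tested later, without glial progenitor-like cells. The clusters were named from the same markers, so the counts do not test the names. The class with Cajal-Retzius markers is not described, since Gad1 or Gad2 UMIs were present in 142 of its 199 and 132 of its 200 cells. The dissected tissue, labelled cerebral cortex, also held cells with markers of striatal projection neurons (370 and 592 cells in libraries 1 and 2) and of GABAergic progenitors (281 and 517).

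Over all cells that passed the filter, every regulator was detected in both libraries, from 2620 UMIs in all for Ptbp1 to 221917 for Rbfox1. The levels in the 2 libraries differed by at most 0.28 on the log2 scale, for Nova1. Levels are given as UMIs per 1000000 UMIs of a class (CPM), and they are compared between classes and not between genes, since capture at the 3′ end differs from gene to gene.

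**Figure D1:**
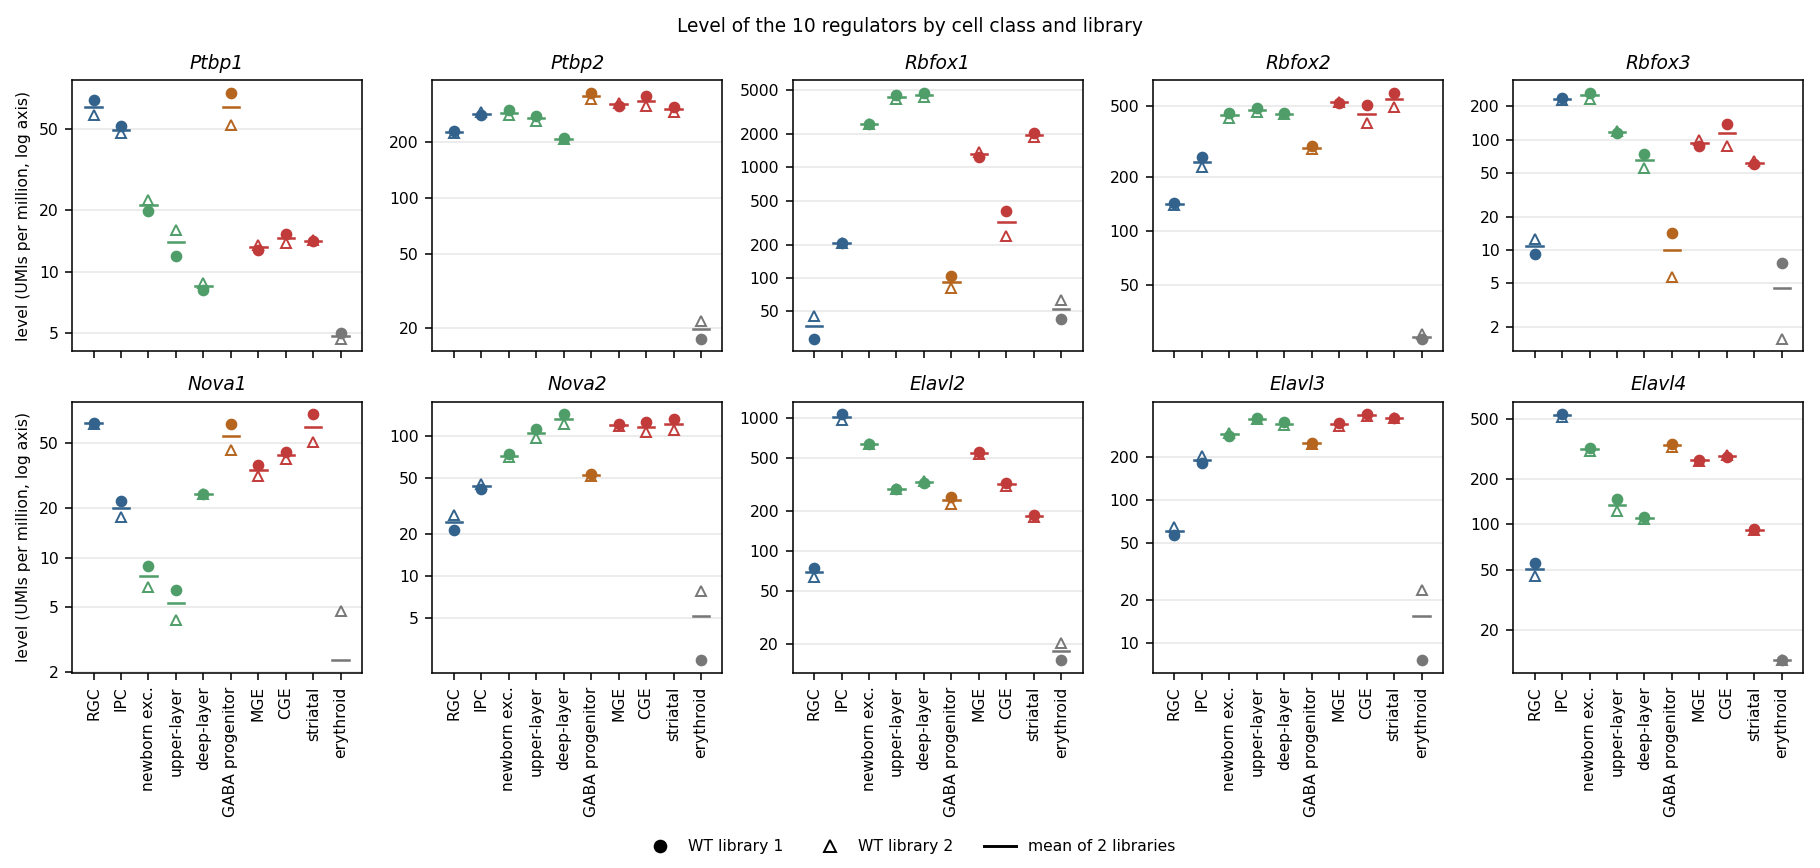
Level of each regulator (CPM, log axis) in 9 neural classes and in erythroid-like cells, with filled circles for library 1, open triangles for library 2 and a line at their mean. Ptbp1 is high in RGC-like and GABAergic progenitor-like cells and low in neurons, Rbfox1 climbs from 36.7 CPM in RGC-like to 4545 CPM in deep-layer neuron-like cells, and Elavl2 and Elavl4 peak in IPC-like cells; a value of 0 (Nova1 in erythroid-like cells of library 1) is not drawn.

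Ptbp1 separated progenitors from neurons in both lineages. In radial glial cell (RGC)-like cells its level was 69.3 and 58.7 CPM in libraries 1 and 2, in intermediate progenitor cell (IPC)-like cells 51.5 and 47.7 CPM, and in GABAergic progenitor-like cells 75.2 and 52.5 CPM. It was 19.9 and 22.5 CPM in newborn excitatory neuron-like cells, 11.96 and 15.97 CPM in upper-layer and 8.16 and 8.80 CPM in deep-layer neuron-like cells. The lowest progenitor value thus lay above the highest neuronal one. MGE interneuron-like cells held 12.8 and 13.6 CPM, CGE interneuron-like cells 15.2 and 13.9 CPM and striatal projection neuron-like cells 14.1 and 14.3 CPM, a range that overlapped with that of upper-layer neurons. Of the non-neural classes, pericyte-like, endothelial-like and meningeal fibroblast-like cells lay above the RGC-like class, with means of 99.3, 86.4 and 75.3 CPM. Erythroid-like cells lay below it, with a mean of 4.86 CPM. In erythroid-like cells 9 erythroid markers took up 793961 and 785470 CPM, so the levels of all other genes are lowered there. Microglia-like cells held 13.3 and 59.3 CPM on only 2 and 22 UMIs, and are placed neither above nor below the RGC-like class.

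Ptbp2 varied far less. Its mean level lay between 209 CPM in deep-layer neuron-like and 353 CPM in GABAergic progenitor-like cells over the 9 neural classes, and RGC-like cells already held 228 and 222 CPM. In endothelial-like cells it was 62.3 and 56.7 CPM and in erythroid-like cells 17.6 and 21.9 CPM. The share of Ptbp1 in the UMIs of both genes fell from 22.1% ± 1.68 (SD, n = 2 libraries) in RGC-like cells through 14.9% ± 0.943 in IPC-like and 6.89% ± 0.826 in newborn excitatory neuron-like cells to 4.97% ± 1.15 in upper-layer and 3.90% ± 0.209 in deep-layer neuron-like cells. In the GABAergic lineage it was 15.2% ± 2.50 in progenitor-like and 3.97% ± 0.0651 in MGE interneuron-like cells. No test was made of these shares. Endothelial-like cells had 59.2% ± 2.33.

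The Ptbp1 gene lies at chr10:79854432-79864435 (GRCm38.p6, plus strand) and Ptbp2 at chr3:119718741-119784647 (minus strand). To show the regions upstream of genes that differ so clearly in pattern, the 250 bases before the RefSeq start of Ptbp1 (chr10:79854182-79854431), Ptbp2 (chr3:119783389-119783638) and Elavl3 (chr9:22052024-22052273, minus strand), a Hu gene that is low in RGC-like cells, are printed 5′ to 3′ on the strand of the gene. The RefSeq starts used for Ptbp2 and Elavl3 lie inside the span of the gene, so that their windows overlap with it. Capitals mark the letters CAGCTG and CAGATG (or CATCTG, its reverse complement), forms of the E-box bound by proneural bHLH factors, which were searched on both strands.
Ptbp1: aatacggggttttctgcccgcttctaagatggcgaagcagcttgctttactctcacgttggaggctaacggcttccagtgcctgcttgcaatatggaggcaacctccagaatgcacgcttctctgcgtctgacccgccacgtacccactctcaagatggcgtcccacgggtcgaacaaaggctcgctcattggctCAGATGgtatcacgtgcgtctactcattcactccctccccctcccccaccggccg
Ptbp2: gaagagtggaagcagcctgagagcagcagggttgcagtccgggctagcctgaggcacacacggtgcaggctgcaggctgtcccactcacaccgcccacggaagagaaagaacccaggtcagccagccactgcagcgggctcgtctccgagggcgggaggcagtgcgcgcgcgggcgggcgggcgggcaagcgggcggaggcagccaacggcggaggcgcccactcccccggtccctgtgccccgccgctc
Elavl3: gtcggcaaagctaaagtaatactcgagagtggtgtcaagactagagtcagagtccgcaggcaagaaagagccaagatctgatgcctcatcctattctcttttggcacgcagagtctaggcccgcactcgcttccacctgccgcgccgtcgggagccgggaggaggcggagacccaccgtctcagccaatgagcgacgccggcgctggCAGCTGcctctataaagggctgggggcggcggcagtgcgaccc
The Ptbp1 window holds 1 CAGATG and the Elavl3 window 1 CAGCTG, whereas neither set of letters is in the Ptbp2 window. Windows were at hand for 9 of the 10 genes, several of which have more than 1 start. CAGCTG was in 5 of their 18 windows, from Elavl3, Elavl4, Nova1 and Rbfox1, and in 13% of all 32851 windows. CAGATG was in 4 of the 18, from Elavl4 and Ptbp1, and in 14.4% of all windows. These matches are a description of the sequence, and no binding was measured.

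The 3 Rbfox genes each had a pattern of their own. Rbfox1, a splicing regulator of maturing neurons, was at 28.2 and 45.3 CPM in RGC-like, 206 and 208 CPM in IPC-like and 2453 and 2458 CPM in newborn excitatory neuron-like cells. It reached 4518 and 4187 CPM in upper-layer and 4743 and 4347 CPM in deep-layer neuron-like cells, whose ranges overlap. In the GABAergic lineage it was at 105 and 80.4 CPM in progenitor-like, 403 and 237 CPM in CGE interneuron-like, 1237 and 1388 CPM in MGE interneuron-like and 2054 and 1862 CPM in striatal projection neuron-like cells. These 4 classes did not overlap with each other. A UMI of Rbfox1 was found in 12.3% and 8.74% of RGC-like cells (median depth 7478 and 4996 UMIs), against 19.0% and 8.33% of endothelial-like cells (9199 and 6944 UMIs) and 4.72% and 5.19% of erythroid-like cells (3170 and 3757 UMIs). The level in RGC-like cells is therefore read as background, not as expression. The erythroid-like shares weigh little here, since erythroid markers make up most UMIs of those cells.

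Rbfox2, the broadly expressed member of the family, was at 143 and 141 CPM in RGC-like, 261 and 229 CPM in IPC-like and 299 and 287 CPM in GABAergic progenitor-like cells. All 6 classes of neurons lay between 402 and 596 CPM. Rbfox3, which encodes the neuronal marker NeuN, was highest at the start of the excitatory neuronal path: 236 and 226 CPM in IPC-like and 266 and 235 CPM in newborn excitatory neuron-like cells, which overlapped, against 115 and 121 CPM in upper-layer and 73.9 and 55.6 CPM in deep-layer neuron-like cells. In RGC-like cells it was at 9.13 and 12.6 CPM and in GABAergic progenitor-like cells at 14.3 and 5.65 CPM, within the 17.8 and 6.30 CPM of endothelial-like cells or close to them, so that both are read as background. A UMI of Rbfox3 was present in 68.1% and 64.0% of IPC-like and 5.06% and 4.72% of RGC-like cells. With every cell thinned to 1500 UMIs, which removes differences in depth and leaves out no cell, the shares were 27.4% and 26.1% in IPC-like, 2.22% and 1.92% in RGC-like and 14.9% and 15.9% in upper-layer neuron-like cells.

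The composition of the Rbfox family differed accordingly. Rbfox2 made up 75.1% ± 6.0 (SD, n = 2) of the family's UMIs in RGC-like and 74.2% ± 3.84 in GABAergic progenitor-like cells. In IPC-like cells its share was lower, 35.8% ± 1.81, and those of Rbfox1 and Rbfox3 were 30.4% ± 1.41 and 33.8% ± 0.392. Rbfox1 took 88.0% ± 0.334 in upper-layer and 89.7% ± 0.293 in deep-layer neuron-like cells, 68.0% ± 1.31 in MGE interneuron-like and 35.5% ± 4.04 in CGE interneuron-like cells. The shares compare classes with each other and not genes, for the reason given for the levels.

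**Figure D2:**
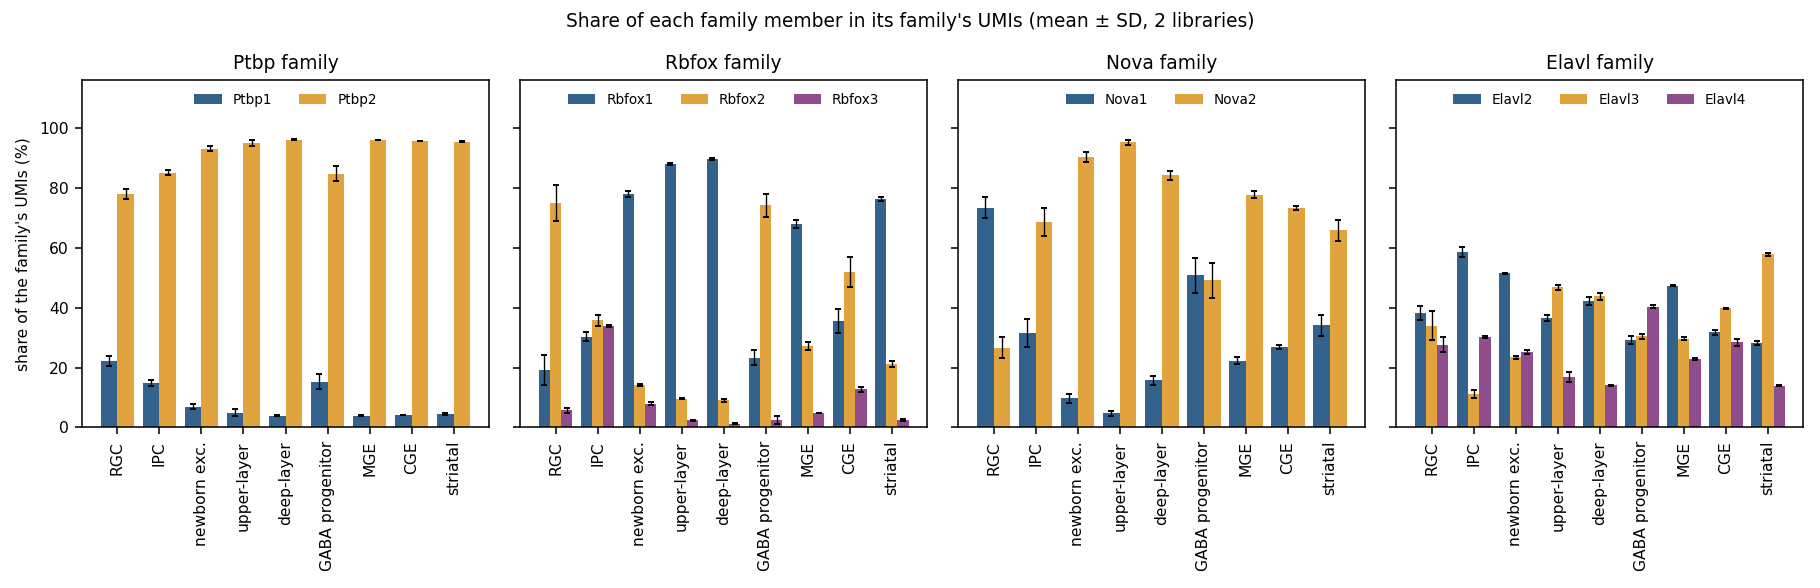
Share of each member in the UMIs of its family (%, mean of 2 libraries, error bars SD) in 9 neural classes. Ptbp1 falls from 22.1% in RGC-like to 3.90% in deep-layer neuron-like cells, Nova1 from 73.4% in RGC-like to 4.75% in upper-layer neuron-like cells, and Rbfox1 makes up the greater part of the Rbfox UMIs in all classes of neurons except CGE interneuron-like cells.

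Nova1 and Nova2 ran in opposite directions from RGC-like to upper-layer neuron-like cells, whereas both were higher in deep-layer than in upper-layer neuron-like cells. Nova1 was at 67.0 and 66.0 CPM in RGC-like, 22.2 and 17.7 CPM in IPC-like, 8.89 and 6.57 CPM in newborn excitatory and 6.33 and 4.16 CPM in upper-layer neuron-like cells. Deep-layer neuron-like cells held 24.5 and 24.5 CPM, above the IPC-like, newborn excitatory and upper-layer neuron-like classes. GABAergic classes kept Nova1 at 65.5 and 45.5 CPM in progenitor-like, 36.6 and 31.7 CPM in MGE interneuron-like, 44.5 and 39.9 CPM in CGE interneuron-like and 75.5 and 51.0 CPM in striatal projection neuron-like cells. Outside these classes the level was 313 and 232 CPM in glial progenitor-like cells, which numbered only 21 and 17 cells and were in no test. No Nova1 UMI was seen in the 42 and 84 endothelial-like cells.

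Nova2, the Nova member of the neocortex, was at 21.3 and 27.2 CPM in RGC-like, 41.8 and 45.3 CPM in IPC-like and 73.5 and 70.2 CPM in newborn excitatory neuron-like cells. It was at 112 and 96.3 CPM in upper-layer and 142 and 122 CPM in deep-layer neuron-like cells, and the 3 classes of GABAergic neurons lay between 107 and 131 CPM. Neighbours in the order of these 5 classes overlapped. Nova1 made up 73.4% ± 3.55 of the Nova UMIs in RGC-like cells, 31.4% ± 4.71 in IPC-like, 4.75% ± 0.863 in upper-layer and 15.7% ± 1.48 in deep-layer neuron-like cells. In the GABAergic lineage its share was 50.8% ± 5.78 in progenitor-like, 22.3% ± 1.21 in MGE interneuron-like, 26.8% ± 0.641 in CGE interneuron-like and 34.1% ± 3.50 in striatal projection neuron-like cells.

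Among the neuronal Hu genes, Elavl2 and Elavl4 peaked in IPC-like cells and Elavl3 in neurons. Elavl2 was at 75.0 and 64.3 CPM in RGC-like, 1070 and 973 CPM in IPC-like and 634 and 642 CPM in newborn excitatory neuron-like cells. It then was at 293 CPM in both libraries in upper-layer and at 325 and 337 CPM in deep-layer neuron-like cells. In the GABAergic lineage MGE interneuron-like cells stood out with 553 and 538 CPM, against 326 and 307 CPM in CGE interneuron-like, 257 and 225 CPM in progenitor-like and 188 and 181 CPM in striatal projection neuron-like cells.

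Elavl4 was at 55.2 and 45.3 CPM in RGC-like cells and at 535 and 516 CPM in the IPC-like class, its highest level in any class. GABAergic progenitor-like cells followed with 340 and 324 CPM, then newborn excitatory neuron-like cells with 318 and 306 CPM, which did not overlap. CGE interneuron-like cells held 278 and 288 CPM, MGE interneuron-like cells 266 and 264 CPM, upper-layer neuron-like cells 146 and 122 CPM, deep-layer neuron-like cells 112 and 109 CPM and striatal projection neuron-like cells 92.1 and 90.7 CPM. Elavl3, by contrast, was at 57.1 and 65.4 CPM in RGC-like cells, at 182 and 204 CPM in the IPC-like class and between 333 and 403 CPM in all 5 classes of upper-layer, deep-layer, MGE, CGE and striatal neurons. The levels of all 3 Hu genes in RGC-like cells lay within the range of the microglia-like cells, of which there were only 27 and 52.

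Elavl2 made up 58.7% ± 1.68 (SD, n = 2) of the UMIs of the 3 Hu genes in IPC-like cells and 36.5% ± 0.879 in upper-layer neuron-like cells. The share of Elavl3 was 11.1% ± 1.31 in IPC-like, 46.8% ± 0.794 in upper-layer and 57.8% ± 0.555 in striatal projection neuron-like cells. Among the 9 neural classes Elavl4 had its highest share, 40.3% ± 0.514, in GABAergic progenitor-like cells.

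Classes were compared with edgeR's quasi-likelihood test on UMIs summed per class and library, with the library as a block and Benjamini-Hochberg adjustment over 15290 genes. A gene is called at an adjusted p under 0.05. All 10 regulators passed the filter on low counts, and log2 fold changes are given with their SE. The p-values measure how much the differences between classes vary from library to library, pooled over the 15 classes in the fit. A shift of a whole library is taken out by the block. They do not measure variation between animals, since the number of embryos per library is not known. The classes were formed from other genes of the same cells.

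The first question was how the regulators change from radial glia to excitatory neurons, taken as the mean on the log scale of the upper-layer and deep-layer neuron-like classes. All 10 were called, 2 higher in RGC-like cells and 8 lower, where 60.1% of all genes tested were called, 29.5% higher and 30.5% lower. The median over the regulators was -2.15, against -0.05 over all genes. Ptbp1 and Nova1 were higher in RGC-like cells, by a log2 fold change of 2.32 ± 0.17 (adjusted p = 2.31e-15) and 2.36 ± 0.15 (adjusted p = 8.46e-17).

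Rbfox1 was lower, at -7.09 ± 0.26 (adjusted p = 1.25e-24) and at -7.53 and -6.78 in the libraries alone, but its level in RGC-like cells is read as background, so the size of this difference is uncertain and it is not ranked. The other lower genes were Rbfox3 with -3.18 ± 0.21, from a level in RGC-like cells that lay within the endothelial-like range, Elavl3 with -2.75 ± 0.13, Nova2 with -2.45 ± 0.14, Elavl2 with -2.38 ± 0.13, Rbfox2 with -1.91 ± 0.11 and Elavl4 with -1.49 ± 0.13. All 6 had the same direction in each library. In RGC-like cells the 3 Hu genes lay within the microglia-like range and above the other non-neural classes. Nova2, at 21.3 and 27.2 CPM, lay below the 28.9 and 47.2 CPM of endothelial-like cells and above the other non-neural classes. The sizes for the Hu genes and Nova2 are therefore uncertain too. Ptbp2 was lower by a small amount, -0.28 ± 0.09 (adjusted p = 0.00856), a call lost when total UMIs served as library size (-0.07, adjusted p = 0.532), with DESeq2 size factors (-0.20, adjusted p = 0.0517) and without the filter on low counts (-0.21, adjusted p = 0.151).

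The size of the Rbfox1 difference rested on the removal of doublets. With none removed, its level in RGC-like cells was 263 and 433 CPM and the difference -3.83, and in cells gated on marker UMIs it was -5.62. Likewise Rbfox3 moved to -2.27 and Elavl2 to -1.76 with no doublets removed, and all 3 stayed called.

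In IPC-like cells, by comparison with the same excitatory neurons, 9 of the 10 regulators were called, 5 higher and 4 lower (52.9% of all genes, 24.6% higher and 28.4% lower). Ptbp1 was higher by 2.01 ± 0.18 (adjusted p = 1.26e-12), and 1.39 in gated cells. Elavl4 was higher by 1.95 ± 0.10 (adjusted p = 1.90e-20), Elavl2 by 1.55 ± 0.10 (adjusted p = 7.68e-17), Rbfox3 by 1.25 ± 0.12 (adjusted p = 2.40e-11) and Nova1 by 0.66 ± 0.20 (adjusted p = 0.00503). In gated cells Elavl4 was at 1.60, Elavl2 at 1.36, Rbfox3 at 0.78 and Nova1 at 1.06, and all stayed called. Lower were Rbfox1 with -4.58 ± 0.22, Nova2 with -1.57 ± 0.12, Rbfox2 with -1.08 ± 0.10 and Elavl3 with -1.05 ± 0.11. The size for Rbfox1 is uncertain, since its 206 and 208 CPM in IPC-like cells lay below the 262 and 394 CPM of meningeal fibroblast-like and within the 425 and 162 CPM of microglia-like cells.

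The IPC-like class thus held 3 neuronal regulators, Elavl2, Elavl4 and Rbfox3, above their level in the excitatory neurons, together with a high Ptbp1. Ptbp2 did not pass, with 0.11 ± 0.09 (adjusted p = 0.316), but was called with total UMIs as library size (0.27, adjusted p = 0.00969) and with only the classes of the comparison in the fit (0.19, adjusted p = 0.0343). The Rbfox1 difference was -3.56 with no doublets removed and -3.34 in gated cells. The comparisons of RGC-like and IPC-like cells share the sums of the excitatory neurons.

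Cells of the IPC-like class came from a pair of clusters. In the cluster led by Eomes and Neurog2 (548 cells) Ptbp1 was at 37.8 and 36.7 CPM, Elavl4 at 655 and 636 CPM and Rbfox3 at 292 and 271 CPM. In the cluster led by cell cycle genes such as Pclaf and Hist1h1b (215 cells) Ptbp1 was at 82.3 and 67.7 CPM, Elavl4 at 266 and 297 CPM and Rbfox3 at 110 and 144 CPM. The libraries did not overlap between the clusters for any of these genes, and the difference was not tested.

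RGC-like and IPC-like cells were then set directly against each other. Of the 10 regulators, 9 were called, 1 higher in RGC-like cells and 8 lower (31.5% of all genes, 17.9% higher and 13.6% lower). Nova1 was higher in RGC-like cells by 1.70 ± 0.18 (adjusted p = 3.79e-10). Elavl2 was lower by -3.93 ± 0.14 (adjusted p = 1.30e-23) and Elavl4 by -3.45 ± 0.13 (adjusted p = 7.96e-23). Rbfox3 was at -4.42 ± 0.20 (adjusted p = 1.10e-20), but its 9.13 and 12.6 CPM in RGC-like cells lay within the endothelial-like range of 17.8 and 6.30 CPM and are read as background, so the size of this difference is uncertain and it is not ranked against the other genes. Elavl3 (-1.70 ± 0.14), Nova2 (-0.88 ± 0.17), Rbfox2 (-0.83 ± 0.12) and Ptbp2 (-0.39 ± 0.10, adjusted p = 0.00331) were lower too. The levels of the 3 Hu genes in RGC-like cells lay within the microglia-like range, and that of Nova2 below the endothelial-like one. The sizes of their differences are uncertain as well.

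For Rbfox1 the value was -2.51 ± 0.27 (adjusted p = 4.25e-10), but -0.27 and not called (adjusted p = 0.463) with no doublets removed. Rbfox3 and Elavl2 moved to -3.48 and -3.32 in that setting and stayed called. Ptbp1 differed by 0.31 ± 0.16 (adjusted p = 0.140), a difference that passed with DESeq2 size factors (0.41, adjusted p = 0.0406) and in gated cells (0.46, adjusted p = 0.0185).

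**Figure D3:**
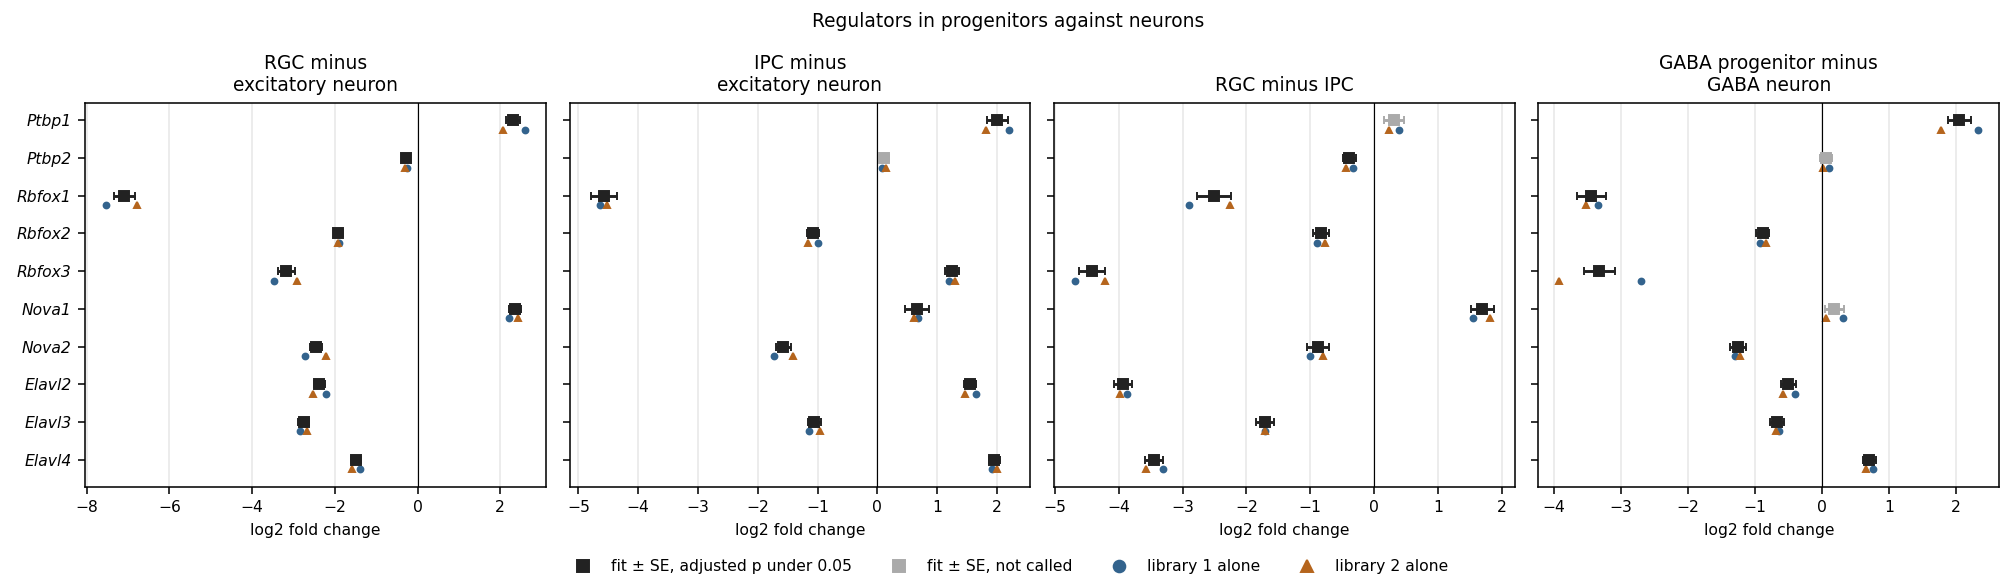
log2 fold change of the 10 regulators in 4 comparisons of progenitors, with squares and bars for the fit and its SE (black where the adjusted p is under 0.05, grey where not) and small symbols for library 1 (circles) and library 2 (triangles) alone. Rbfox1 lies farthest to the left against excitatory neurons (-7.09 for RGC-like and -4.58 for IPC-like cells, both of uncertain size), whereas Ptbp1 lies at 2.32, 2.01 and 2.05 in the 3 comparisons with neurons.

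The corresponding step of the GABAergic lineage was asked by comparing GABAergic progenitor-like cells with the mean of the MGE, CGE and striatal classes. Of the 10 regulators, 8 were called, 2 higher in the progenitors and 6 lower (46.4% of all genes, 22.6% higher and 23.8% lower). Ptbp1 was higher by 2.05 ± 0.17 (adjusted p = 3.46e-13) and Elavl4 by 0.71 ± 0.10 (adjusted p = 6.91e-08). Most of the Elavl4 difference came from striatal projection neuron-like cells, at 92.1 and 90.7 CPM. Both interneuron classes held 264 to 288 CPM, nearer to the 340 and 324 CPM of the progenitors. Rbfox1 with -3.44 ± 0.22 (adjusted p = 1.16e-16) and Rbfox3 with -3.32 ± 0.23 (adjusted p = 1.10e-15) were far lower. The progenitor-like levels behind both, 105 and 80.4 CPM of Rbfox1 and 14.3 and 5.65 CPM of Rbfox3, overlapped the endothelial-like ones (196 and 45.7 CPM of Rbfox1), so the size of both differences is uncertain.

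Nova2 was lower by -1.25 ± 0.12, Rbfox2 by -0.88 ± 0.10, Elavl3 by -0.66 ± 0.10 and Elavl2 by -0.50 ± 0.11. For Elavl2 the classes went both ways. Progenitor-like cells, at 257 and 225 CPM, lay below MGE (553 and 538 CPM) and CGE interneuron-like cells (326 and 307 CPM). They lay above striatal projection neuron-like cells (188 and 181 CPM). Nova1 (0.19 ± 0.14, adjusted p = 0.298) and Ptbp2 (0.06 ± 0.09, adjusted p = 0.585) did not pass. With no doublets removed, Rbfox1 moved to -1.35 and Rbfox3 to -1.76, and single libraries gave -2.70 and -3.92 for Rbfox3. Its level in the progenitors rested on 28 and 17 UMIs.

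Whether the step from progenitor to neuron differed between the lineages was tested in the same fit, as the change from RGC-like cells to excitatory neurons minus the change from GABAergic progenitor-like cells to GABAergic neurons. The difference was called for 8 of the 10, 7 with a greater rise in the excitatory lineage and 1 with a lower value there (28.4% of all genes, 14.8% and 13.6%). With RGC-like cells as the start, Elavl4 moved in opposite directions, by 1.49 upwards in the excitatory and -0.71 in the GABAergic lineage, a difference of 2.20 ± 0.16 (adjusted p = 2.77e-14). This direction depends on the start, since Elavl4 was higher in IPC-like cells than in excitatory neurons by 1.95 and Elavl2 by 1.55. From IPC-like cells the step of Elavl4 thus ran downwards, as in the GABAergic lineage. The GABAergic step of Elavl4 came mostly from striatal projection neuron-like cells, at 92.1 and 90.7 CPM. Progenitor-like cells held 340 and 324 CPM, CGE interneuron-like cells 278 and 288 CPM and MGE interneuron-like cells 266 and 264 CPM. Nova1 changed by -2.36 in the excitatory and by -0.19, which did not pass, in the GABAergic lineage (difference -2.17 ± 0.21, adjusted p = 6.83e-11).

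Rbfox1 rose by 7.09 and 3.44 (difference 3.65 ± 0.32, adjusted p = 4.10e-12), Elavl3 by 2.75 and 0.66 (2.09 ± 0.16, adjusted p = 1.02e-13) and Elavl2 by 2.38 and 0.50 (1.88 ± 0.17, adjusted p = 9.03e-12). The 0.50 for Elavl2 is a mean over GABAergic classes that lay above and below the progenitors. Nova2 rose by 2.45 and 1.25 (1.20 ± 0.19, adjusted p = 3.42e-06) and Rbfox2 by 1.91 and 0.88 (1.03 ± 0.14, adjusted p = 2.21e-07). For Ptbp1 the difference was -0.26 ± 0.26 (adjusted p = 0.510) and for Rbfox3 -0.14 ± 0.38 (adjusted p = 0.855), where library 1 alone gave 0.78 and library 2 alone -1.01. Ptbp2 differed by 0.34 ± 0.12 (adjusted p = 0.0363), a call lost in 6 of the 8 alternatives with a test. With no doublets removed, the Rbfox1 and Elavl4 differences were 2.48 and 1.57. The RGC-like levels of Rbfox1 and Rbfox3 are read as background. Those of the 3 Hu genes lay within the microglia-like range, and that of Nova2 below the endothelial-like one. The sizes of the differences for these genes are therefore uncertain.

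**Figure D4:**
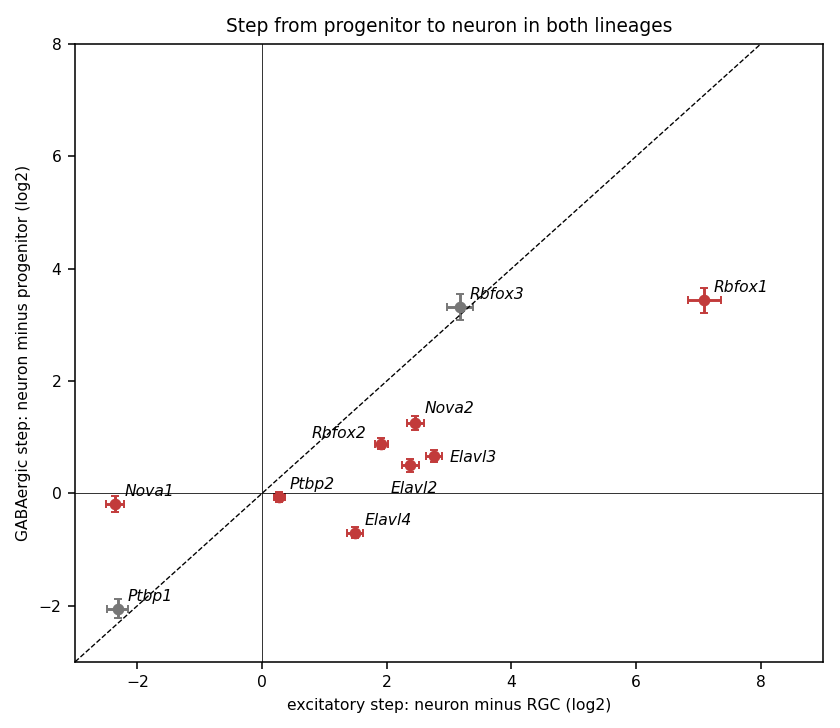
Change of each regulator from RGC-like cells to excitatory neurons (horizontal axis, log2) against its change from GABAergic progenitor-like cells to GABAergic neurons (vertical axis, log2), with bars of 1 SE and a dashed line of equal change. Red points differ between the lineages at an adjusted p under 0.05: Nova1 lies above the line and Rbfox1, Rbfox2, Nova2, Ptbp2 and the 3 Hu genes below it, with Elavl4 on opposite sides of 0 (1.49 and -0.71), and Ptbp1 and Rbfox3 (grey) near it.

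GABAergic and excitatory neurons were compared next. Called were 4 of 10, 3 higher in GABAergic neurons and 1 lower (33% of all genes, 14.4% higher and 18.6% lower). Rbfox1 was lower by -2.32 ± 0.13 (adjusted p = 1.30e-18) and Nova1 higher by 1.93 ± 0.14 (adjusted p = 1.69e-14). Elavl4 was higher by 0.59 ± 0.09 (adjusted p = 3.74e-07) in the mean of the GABAergic classes. Only MGE and CGE interneuron-like cells held more of it. Striatal projection neuron-like cells, at 92.1 and 90.7 CPM of Elavl4, lay below both excitatory classes. Ptbp2 was higher by 0.36 ± 0.07 (adjusted p = 5.80e-05). The 6 others differed by between -0.07 and 0.29. Of these, Rbfox3 was lower and called at the coarser clustering (-0.33, adjusted p = 0.0159) and in gated cells (-1.20, adjusted p = 3.73e-09), and Elavl2 in gated cells (-0.18, adjusted p = 0.0384). In gated cells Nova1 differed by 2.75 and Elavl4 by 0.26 (adjusted p = 0.00613).

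MGE and CGE interneuron-like cells differed in 2 of 10 regulators, both higher in MGE (6.97% of all genes, 4.15% higher and 2.82% lower). Rbfox1 was higher by 2.15 ± 0.22 (adjusted p = 1.07e-09), with 1.71 and 2.58 in the single libraries, and Elavl2 by 0.85 ± 0.13 (adjusted p = 1.01e-05). At the coarser clustering 4 were called, the Rbfox1 difference was 1.53, Nova1 was called at -0.66 (adjusted p = 0.0129) and Elavl4 turned from -0.04 to 0.43. The MGE class combined a cluster led by Dlgap2 and Nxph1 with Rbfox1 at 2402 and 2322 CPM and a cluster led by Nxph1 and Cntnap5c with 274 and 238 CPM. The level in the latter lay close to that of CGE interneuron-like cells.

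Against striatal projection neuron-like cells, MGE interneuron-like cells differed in 4 of 10, 3 higher and 1 lower (16.7% of all genes, 8.82% higher and 7.89% lower). Elavl2 was higher by 1.59 ± 0.13 (adjusted p = 7.86e-13) and Elavl4 by 1.56 ± 0.13 (adjusted p = 1.65e-12), whereas Nova1 was lower by -0.82 ± 0.17 (adjusted p = 0.000429). Rbfox3 was higher by 0.61 ± 0.18 (adjusted p = 0.0121), a call lost with DESeq2 (adjusted p = 0.0730) and with no doublets removed (0.49, adjusted p = 0.0515). Rbfox1 differed by -0.54 ± 0.20 (adjusted p = 0.0531) and passed in 3 alternatives at -0.56 to -0.57, while the coarser clustering gave -0.05 (adjusted p = 0.911). The striatal class was itself uneven for Rbfox1, with 3300 and 2603 CPM in the cluster led by Ptprm and Drd2 and 890 and 909 CPM in that led by Ebf1 and Rarb.

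Upper-layer and deep-layer neuron-like cells differed in 4 of 10 regulators, 2 in each direction (20% of all genes, 9.13% higher and 10.9% lower in upper-layer). Nova1 was lower in upper-layer neurons by -2.23 ± 0.24 (adjusted p = 1.54e-09) and Nova2 by -0.33 ± 0.12 (adjusted p = 0.0388). Rbfox3 was higher by 0.89 ± 0.16 (adjusted p = 4.61e-05) and Ptbp2 by 0.37 ± 0.10 (adjusted p = 0.00748). The Nova2 call was lost without the library block (-0.33, adjusted p = 0.0758), without the filter on low counts and with no doublets removed, and that of Ptbp2 with DESeq2 size factors (0.24, adjusted p = 0.0970). Ptbp1 differed by 0.76 ± 0.29 (adjusted p = 0.0564) and was called without the filter (0.77, adjusted p = 0.0463) and with only these classes in the fit (0.69, adjusted p = 0.0415).

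**Figure D5:**
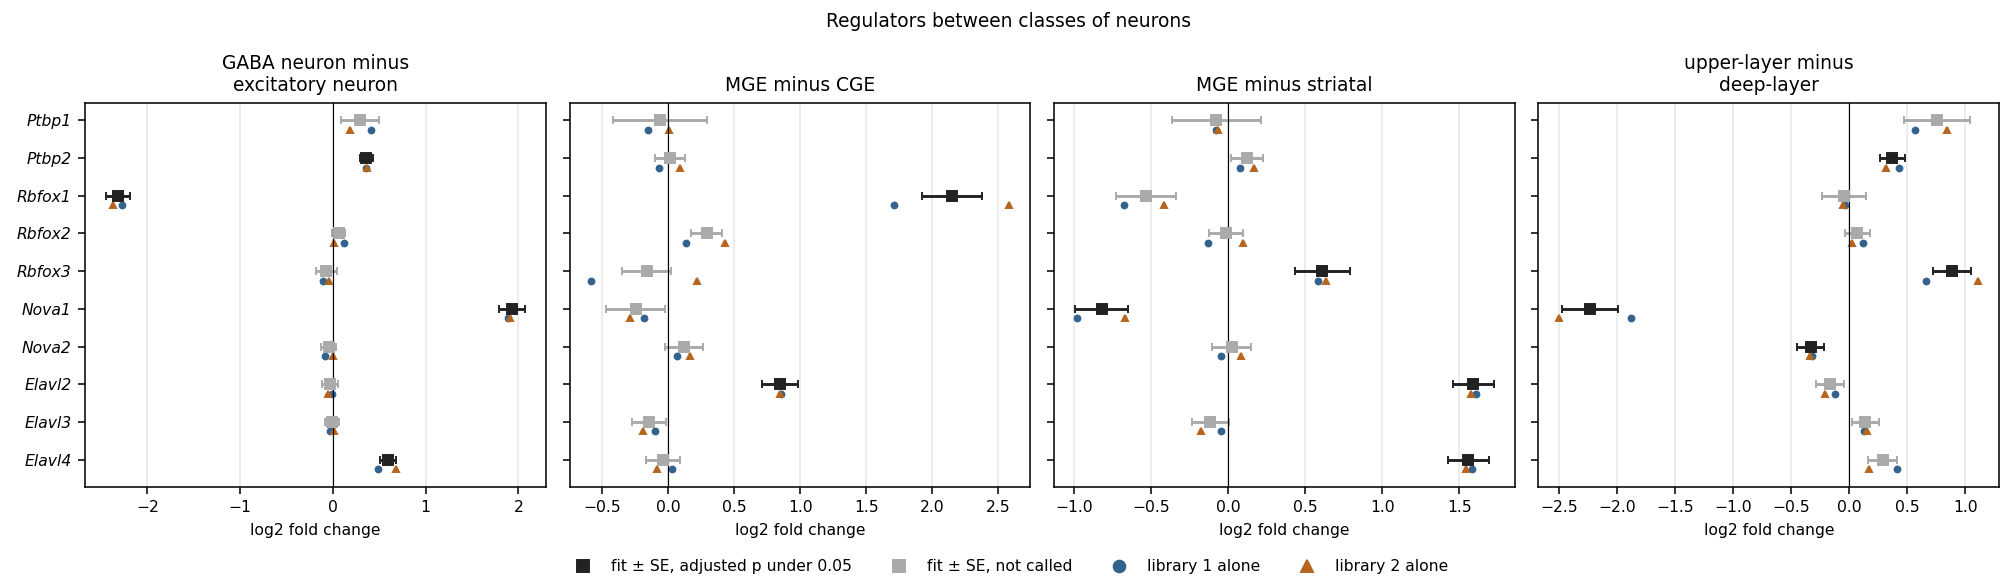
log2 fold change of the 10 regulators in 4 comparisons between classes of neurons, drawn as squares with bars of 1 SE (black where the adjusted p is under 0.05, grey where not), with circles for library 1 and triangles for library 2 alone. Rbfox1 (-2.32) and Nova1 (1.93) separate GABAergic from excitatory neurons, Rbfox1 (2.15) MGE from CGE interneuron-like cells, Elavl2 and Elavl4 (1.59 and 1.56) MGE from striatal cells and Nova1 (-2.23) upper-layer from deep-layer neurons.

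Other RNA-binding and splicing genes were followed in 3 lists. Of 43 other neuronal RNA-binding proteins and splicing partners, 41 were tested. Between RGC-like cells and excitatory neurons, 14 were higher and 22 lower, with a median of -0.37, where 29.5% of all genes were called higher and 30.5% lower. Among the higher ones were Qk (3.90 ± 0.11), the Quaking gene of glial progenitors, and Msi2 (3.12 ± 0.10), a Musashi gene of stem cells. Qk was at 1349 and 1211 CPM in RGC-like cells. Among the lower ones were Khdrbs2 (-5.04 ± 0.16), which encodes the splicing regulator SLM1, and Srrm3 (-4.83 ± 0.23), a regulator of neuronal microexons. For 2 called genes 1 side was close to 0, so no fold is given. Mbnl3 was at 15.6 and 8.18 CPM in RGC-like cells and 0.677 and 0.242 CPM in the excitatory neurons, and Celf6 at 0 and 0.876 CPM in RGC-like cells and 18.3 and 17.1 CPM in the neurons.

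In IPC-like cells 14 of these 41 were higher and 18 lower than in excitatory neurons, beside 24.6% and 28.4% of all genes, with Msi2 at 2.32 ± 0.11 and Khdrbs2 at -5.00 ± 0.16 as the extremes. With total UMIs as library size the split was 20 and 17. Srrm4, the microexon regulator that acts against PTBP1-dependent skipping, was the gene furthest apart between RGC-like and IPC-like cells, at -5.00 ± 0.20 with 13.4 CPM on average in the former and 415 CPM in the latter, where 7 were higher and 13 lower, beside 17.9% and 13.6% of all genes. Between GABAergic progenitor-like cells and GABAergic neurons, 13 were higher and 14 lower, beside 22.6% and 23.8% of all genes, and 17 and 13 with total UMIs as library size. Among them were Rbm24 (1.67 ± 0.32), Igf2bp1 (1.61 ± 0.17) and Msi2 (1.46 ± 0.09) above and Celf5 (-3.01 ± 0.19), Khdrbs2 (-3.0 ± 0.16) and Cpeb3 (-2.72 ± 0.15) below.

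Among neurons, 16 of the 41 were higher and 8 lower in GABAergic than in excitatory neurons, a split of 21 and 7 with DESeq2 size factors and 14.4% and 18.6% over all genes. Rbms3 (4.26 ± 0.16), Qk (2.25 ± 0.10) and Ptbp3 (1.63 ± 0.15), the remaining PTBP paralogue, were higher and Rbm24 (-3.40 ± 0.23), Khdrbs3 (-2.14 ± 0.08) and Khdrbs2 (-1.98 ± 0.08) lower. In MGE against CGE interneuron-like cells 7 were higher and 3 lower, beside 4.15% and 2.82% of all genes, with Rbms3 at 2.68 ± 0.19 and Mbnl3 at -3.48 ± 0.61, which was -2.83 and -4.18 in the libraries alone. Against striatal projection neuron-like cells 13 were higher and 3 lower, beside 8.82% and 7.89% of all genes, led by Khdrbs2 at 2.34 ± 0.15 and Rbms1 at -1.61 ± 0.19. In upper-layer against deep-layer neuron-like cells 7 were higher and 9 lower, beside 9.13% and 10.9% of all genes, among them Rbm24 at 2.47 ± 0.19 and Rbms3 at -1.88 ± 0.31. Lin28b, at -2.52 ± 0.36, was at -3.02 and -1.70 in the libraries alone, with 2.39 and 2.42 CPM in upper-layer neuron-like cells. The split was 3 and 10 with DESeq2 size factors and 5 and 11 in DESeq2.

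The list of general splicing factors holds SR proteins, hnRNPs and core components, and all 41 were tested. In RGC-like cells 26 were higher and 5 lower than in excitatory neurons, in IPC-like cells 31 and 1 and in GABAergic progenitor-like against GABAergic neurons 36 and 1, with medians of 0.28, 0.39 and 0.63. Over all genes 29.5%, 24.6% and 22.6% were called higher and 30.5%, 28.4% and 23.8% lower in these comparisons. Srsf9 (1.58 ± 0.11), Hnrnpf (1.21 ± 0.10) and Srsf2 (0.81 ± 0.09) led in RGC-like cells and Matr3 (-0.73 ± 0.10) was lowest. Between RGC-like and IPC-like cells 2 were higher and 9 lower, a split of 3 and 4 with DESeq2 size factors, beside 17.9% and 13.6% of all genes. In GABAergic against excitatory neurons 9 were higher and 2 lower, 14 and 1 with DESeq2 size factors, beside 14.4% and 18.6%. Between MGE and CGE interneuron-like cells edgeR called 0, with 1 at an unadjusted p under 0.05 and 0 in DESeq2. In upper-layer against deep-layer neurons 11 were higher, 4 with DESeq2 size factors, beside 9.13%, led by Srsf7 (0.64 ± 0.11).

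A list of 12 genes around the PTBP1 switch holds the miR-124 host genes, the transcriptional repressor Rest and genes reported as PTBP1 targets or late neuronal genes. In RGC-like cells against excitatory neurons 3 were higher, among them Rest (1.70 ± 0.22) and Flna (0.75 ± 0.14), and 9 lower, beside 29.5% and 30.5% of all genes. Mir124a-1hg was lower by -5.14 ± 0.21, at 3.86 CPM on average in RGC-like cells and 121 CPM in the excitatory neurons. Snap25 (-4.57 ± 0.16), a synaptic fusion protein gene, and Mapt (-3.90 ± 0.12), which encodes tau, followed. In IPC-like cells 1 was higher and 10 lower, beside 24.6% and 28.4% of all genes. Rest, higher in RGC-like cells, was among the 10 that were lower in IPC-like cells than in excitatory neurons. Its value was -0.79 ± 0.30 (adjusted p = 0.0262), with -1.17 and -0.52 in the libraries alone. In GABAergic progenitor-like cells 1 was higher, Flna (0.69 ± 0.16), and 8 lower, beside 22.6% and 23.8%. With total UMIs as library size the split was 3 and 9 for RGC-like cells, and for the IPC-like class it was 1 and 9.

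Some of these differences can be set beside the length of the genes. Rbfox1 spans 1528 kb of chromosome 16 (chr16:5884793-7412480, GRCm38.p6, plus strand), and the intron setting of the counting is not given in the sources used here. Over the 222 tested genes of at least 500 kb the median log2 fold change was -1.05 for RGC-like cells and -1.46 for IPC-like cells against excitatory neurons and -1.36 in GABAergic progenitor-like cells against GABAergic neurons. Rbfox1 lay below the median in these 3 comparisons. For RGC-like against IPC-like cells the median was 0.50, where Rbfox1 was at -2.51, and for GABAergic against excitatory neurons it was -0.12, where Rbfox1 was at -2.32. For the difference between lineages it was -0.60, where Rbfox1 was at 3.65, above the median. The part of gene length in its differences was not tested. The other 9 regulators span between 10.0 kb (Ptbp1) and 422 kb (Rbfox3).

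Genes whose levels followed each regulator closely over the 15 classes in the fit were found by Pearson's r of log2(CPM + 1), the lower of the 2 libraries, among 13319 genes, with the 10 regulators left out of the search. The classes share their libraries, so these values are a description. Outside the 10, Elavl2 was closest to Srrm4 (r = 0.952), and Elavl4 to Myt1 (0.933). Ptbp2 went with Usp49 (0.970) and Hnrnpr (0.963), Ptbp1 with Tpm4 (0.924) and Elavl3 with Cdk5r1 (0.968) and Stmn1 (0.967). Rbfox2 was closest to 4930402H24Rik (0.959) and Tcaf1 (0.958), Nova2 to Fnbp1l (0.935), Rbfox1 to Gm48293 (0.896), Rbfox3 to Pgap1 (0.882) and Nova1 to Plxnc1 (0.846). Within the 10, Elavl2 and Elavl4 were closest to each other, with r = 0.955 and 0.948 in the 2 libraries.

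The share of cells with a UMI of Ptbp1 was 42.1% and 26.9% in RGC-like, 31.9% and 26.3% in IPC-like, 8.30% and 8.83% in upper-layer and 4.44% and 4.80% in MGE interneuron-like cells, against 0.943% and 1.95% in erythroid-like cells. The erythroid-like shares are lowered by erythroid markers, which make up most UMIs of those cells. Median depth was 8455 and 6923 UMIs in IPC-like, 6916 and 5610 in upper-layer and 3040 and 3287 in MGE interneuron-like cells. With every cell thinned to 1500 UMIs the shares became 10.1% and 8.92% in RGC-like, 7.64% and 4.63% in IPC-like, 1.84% and 2.59% in upper-layer and 1.84% and 2.24% in MGE interneuron-like cells. The order of progenitors above neurons was the same, while the ranges of both classes of neurons overlapped.

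Blood RNA was present in every class: the summed level of 9 erythroid markers was 685 and 1397 CPM in RGC-like, 498 and 2176 CPM in IPC-like and 769 and 1318 CPM in upper-layer neuron-like cells. Its part in the differences was not tested. Markers of microglia, endothelial cells, pericytes and meningeal fibroblasts each summed to at most 102 CPM in these 3 classes. RNA of excitatory neurons was spread too. Neurod6, found in 97.0% and 94.8% of upper-layer neuron-like cells, had a UMI in 17.9% and 19.5% of erythroid-like cells. Its share was 23.8% and 21.4% in endothelial-like and 17.1% and 19.8% in RGC-like cells. The part of this RNA in the differences was not tested.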

How the data were processed

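Per the labels, E16.5 cerebral cortex was dissociated and 3′ single-cell libraries were made with a 10x Genomics kit. The authors deposited whole UMI counts for each gene in each barcode, made with Cell Ranger (7.1.0 per the file headers, 7.0.0 per the submitters' processing notes) with the mouse genome mm10, with no scaling applied. The setting for intronic reads is not given in the sources used here.

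Cells with 1500 to 60000 UMIs and under 10% mitochondrial UMIs were kept. Doublets were scored with Scrublet in scanpy 1.11.5 (Python 3.11.15) and the highest scores removed, at 0.8% per 1000 barcodes (432 and 1111 cells), since the automatic threshold marked 0 and 251. Cells were clustered on 2000 variable genes without the 10 regulators (30 components, Leiden resolution 1, leidenalg 0.10.2). A cluster took the name of a class when at least 3 markers were found in at least 10% of its cells with a score of at least 1.

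UMIs were summed per class and library, and 30 sums of 15 classes were tested with edgeR 4.0.16 (R 4.3.3) (quasi-likelihood F test, library as blocking factor, TMM scaling, Benjamini-Hochberg adjustment) over genes that reached 10 counts in 2 or more sums. DESeq2 1.42.0 served as an alternative. The script was tested on simulated data. Every class of a library comes from the same cell suspension, which is where the pairing by library comes from. The 10 regulators are named in every comparison. From other lists the 3 largest changes in each direction among the called genes with at least 10 CPM are named, and for likeness the genes of highest correlation. The members and lists were chosen with earlier results of these data known. Positions and sequences are from RefSeq for GRCm38.p6, which held windows for 9 of the 10 genes; Rbfox2 has none. Figures were drawn with matplotlib 3.10.9. Some genes that the naming rule selects are not reported here.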

Additional observations from a re-analysis of the deposited data

Results flagged for a closer look

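For 8 of the 10 regulators, beside 28.4% of all genes, the change from progenitor to neuron differed between the excitatory and the GABAergic lineage, by a test of the difference itself in edgeR (2 libraries, excitatory minus GABAergic, log2). The difference was 3.65 ± 0.32 for Rbfox1 (adjusted p = 4.10e-12), 1.03 ± 0.14 for Rbfox2 (adjusted p = 2.21e-07) and -2.17 ± 0.21 for Nova1 (adjusted p = 6.83e-11). It was 1.20 ± 0.19 for Nova2 (adjusted p = 3.42e-06), 1.88 ± 0.17 for Elavl2 (adjusted p = 9.03e-12) and 2.09 ± 0.16 for Elavl3 (adjusted p = 1.02e-13). For Elavl2 the GABAergic step is a mean over classes that lay above and below the progenitors. For Elavl4 the difference was 2.20 ± 0.16 (adjusted p = 2.77e-14), with steps in opposite directions when RGC-like cells are the start. Its GABAergic step came mostly from striatal projection neuron-like cells, at 92.1 and 90.7 CPM. MGE and CGE interneuron-like cells, at 264 to 288 CPM, lay nearer to the 340 and 324 CPM of the progenitors. From IPC-like cells the excitatory step ran downwards, as Elavl4 was higher there than in excitatory neurons by 1.95 and Elavl2 by 1.55. For Ptbp2 it was 0.34 ± 0.12 (adjusted p = 0.0363), the only one of the 8 whose call was lost under an alternative. Each had the same direction in both libraries. The Rbfox1 value starts from a level in RGC-like cells that is read as background. The other start, GABAergic progenitor-like cells with 105 and 80.4 CPM, lay within the endothelial-like range of 196 and 45.7 CPM, with a UMI in 31.3% and 18.8% of cells against 19.0% and 8.33%. The size of the Rbfox1 value is therefore uncertain at both starts, and it was 2.48 with no doublets removed.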

How the results depend on the processing

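Of 760 values of the 10 regulators under alternatives, 730 kept their direction and their side of the threshold, 16 lost and 13 gained a call and 1 reversed, Elavl4 between MGE and CGE interneuron-like cells at Leiden resolution 0.6 (0.43, from -0.04). At that resolution 4 regulators were called in this comparison instead of 2, and 17 genes of the other lists instead of 11. Without the replicate block, which pairs the classes of a library, the calls of Nova2 between upper-layer and deep-layer neurons (-0.33, adjusted p = 0.0758) and of Ptbp2 between the lineages (0.34, adjusted p = 0.0846) were lost, and no other call of a regulator changed. With no doublets removed, the share of Ptbp1 in the Ptbp1 and Ptbp2 UMIs was 20.2% in RGC-like and 4.25% in MGE interneuron-like cells. The share of cells with Ptbp1 was 9.71% in RGC-like, 8.26% in IPC-like and 0.617% in upper-layer neuron-like cells when 2 UMIs were asked for, and 9.52%, 6.14% and 2.22% in thinned cells, and 9.25% in upper-layer neuron-like cells with no doublets removed. For Rbfox3 the shares were 1.35% in RGC-like, 45.7% in IPC-like and 18.9% in upper-layer neuron-like cells with 2 UMIs, 2.07%, 26.8% and 15.4% in thinned cells, and 9.39% in RGC-like cells with no doublets removed. The cause of these shifts was not tested. Total UMIs as library size, chosen after seeing the data, moved the share of higher calls among all genes from 49.2% to 60.5% for RGC-like and from 46.4% to 56.5% for IPC-like cells against excitatory neurons, with median shifts of 0.21 and 0.15 on the log2 scale. Leaving out 1 library leaves 1 sum per class, which gives a value but no test.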

Other observations

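A cluster of 554 cells that took no class name, led by Ntf3 and Kcnq5, had the highest Rbfox1 level of all 26 clusters, 6345 and 6025 CPM in libraries 1 and 2. Its Nova1 level was 11.7 and 9.22 CPM and its Elavl4 level 152 and 123 CPM. No comparison used this cluster.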
